A study of Rattus norvegicus with 18 samples.

Results

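The 10 genes of bone morphogenetic protein (BMP) signalling described here were measured with age in the rat nucleus pulposus, the soft inner tissue of the intervertebral disc. They were picked by symbol from the gene table and are 10 of its 18923 genes. Bmp6 is a ligand, and Bmpr1a and Bmpr2 are a type I and a type II receptor. Bambi, Smad6 and Smad7 are inhibitors of the pathway. Id1, Id2, Id3 and Id4 are inhibitor of DNA binding genes, which are classic targets of BMP signalling.

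BMP ligands bind pairs of type I and type II receptor kinases at the cell surface, and the type I receptor then phosphorylates Smad proteins, which move to the nucleus with Smad4 and switch genes on. Among the genes they switch on are the Id genes and the inhibitors Smad6, Smad7 and Bambi, which feed back on the receptors. Id proteins carry a helix-loop-helix but no DNA-binding region, and they hold basic helix-loop-helix (bHLH) transcription factors away from DNA. In the disc, BMP ligands are known for raising the production of matrix by its cells.

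The study took disc tissue of rats aged 2, 10 and 20 months and profiled nucleus pulposus RNA with and without immunoprecipitation of methylated RNA. The 9 input libraries, 3 per age, measure RNA abundance and are described here, while the 9 immunoprecipitated ones are not analysed here. The labels give no treatment and no difference between the groups but age. The sources used here do not give strain or sex, nor whether the 3 libraries of an age came from separate animals or from pools. Each p-value therefore rests on the spread among these 9 libraries alone, and that spread may be technical. The limma tests below pool it over the 3 ages, though the 20-month libraries varied more. A chi-squared per gene, comparing estimated fragments of 2 replicates, had a median of 1.29 to 1.49 at 20 months. At the younger ages it was 0.551 to 0.662, against 0.455 for sampling of fragments alone. Pooling can understate the uncertainty of the 20-month comparisons and overstate that of 10 against 2 months.

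Levels are FPKM, the fragments of a gene scaled for its length and for the size of the library. The libraries held 3.53 to 5.04 gigabases of alignments, and their Pearson correlation within an age was 0.984 to 0.993. The 20-month libraries stood apart in ways that cannot be told apart from age. Their read length, estimated from the deposited coverage, was 141 bases, against 132 bases at both younger ages. Of their bases, 80.1 to 80.9% lay on listed transcripts, against 85.6 to 86.1%. The nucleus pulposus label fitted its markers: 13 of the 14 marker genes in the table were tested, and the 14 summed to 34020 to 35484, 28993 to 29395 and 29114 to 30496 FPKM per library at 2, 10 and 20 months. In bulk tissue, fewer cells of a type and less RNA per cell cannot be told apart. The 20-month replicate 3 had 256 FPKM summed over 8 skeletal muscle markers, against 4.85 FPKM in the lowest library of that age and at most 31.3 FPKM at the younger ages.

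The 250 bases before and 50 after the annotated start of Id1, Id3, Id4 and Smad7 are printed to set side by side 3 Id genes that fell together at 10 months but parted at 20 months, and an inhibitory Smad that fell at 20 months. The sequences come from RefSeq on build GRCr8, run 5′ to 3′ on the gene's strand, and lie at chr3:161671314-161671613 (plus strand, Id1), chr5:153656041-153656340 (plus strand, Id3), chr17:16598244-16598543 (minus strand, Id4) and chr18:71263258-71263557 (plus strand, Smad7). Capitals mark exact matches to 3 motifs searched on both strands. GGCGCC is a GC-rich sequence known to be bound by the Smads of the BMP branch. CAGAC, or its reverse complement GTCTG, is the core of the Smad-binding element. TATAAA, or its reverse complement TTTATA, has the letters of the TATA box and was counted anywhere in the window.
Id1: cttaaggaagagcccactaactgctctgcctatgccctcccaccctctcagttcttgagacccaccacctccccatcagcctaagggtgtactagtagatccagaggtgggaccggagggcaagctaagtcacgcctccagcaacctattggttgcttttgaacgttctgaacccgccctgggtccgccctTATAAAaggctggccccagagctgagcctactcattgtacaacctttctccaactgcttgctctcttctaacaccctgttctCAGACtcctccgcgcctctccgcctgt
Id3: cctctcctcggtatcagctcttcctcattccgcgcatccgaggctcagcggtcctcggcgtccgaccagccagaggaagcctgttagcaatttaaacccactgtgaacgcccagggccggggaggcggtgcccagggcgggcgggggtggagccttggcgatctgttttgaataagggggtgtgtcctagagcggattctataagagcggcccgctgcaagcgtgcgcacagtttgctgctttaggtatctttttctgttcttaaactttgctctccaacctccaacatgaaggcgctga
Id4: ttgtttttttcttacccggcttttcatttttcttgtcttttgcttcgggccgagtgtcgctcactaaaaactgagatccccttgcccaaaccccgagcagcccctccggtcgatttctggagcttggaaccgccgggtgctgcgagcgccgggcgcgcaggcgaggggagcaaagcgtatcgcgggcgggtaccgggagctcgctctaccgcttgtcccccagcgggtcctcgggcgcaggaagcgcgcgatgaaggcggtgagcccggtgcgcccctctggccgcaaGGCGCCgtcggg
Smad7: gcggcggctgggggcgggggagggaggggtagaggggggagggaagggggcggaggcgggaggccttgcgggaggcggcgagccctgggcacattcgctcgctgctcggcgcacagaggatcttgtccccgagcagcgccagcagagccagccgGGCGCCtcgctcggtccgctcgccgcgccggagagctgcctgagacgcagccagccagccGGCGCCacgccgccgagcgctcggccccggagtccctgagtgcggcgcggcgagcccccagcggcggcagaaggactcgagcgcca
Counted from the first base of the window, the Id1 window held TATAAA at 192 to 197 and CAGAC at 274 to 278, the latter after the annotated start. The Id4 window held GGCGCC at 289 to 294, after the annotated start, and the Smad7 window held it at 155 to 160 and at 215 to 220. None of the 3 motifs was found in the Id3 window. RefSeq windows were matched for 9 of the 10 genes, and among these 3 held GGCGCC (Id4, Smad7 and Bambi), 1 held CAGAC or GTCTG (Id1) and 2 held TATAAA or TTTATA (Id1 and Bmpr1a). Of all 33469 RefSeq windows of this length, 11.0% held GGCGCC, 50.1% CAGAC or GTCTG, and 14.2% TATAAA or TTTATA. The match in Bmpr1a was TTTATA at 18 to 23, at the end of the window away from the annotated start. Matches this short are a description of the letters and not of binding. The GC content of the 9 windows was 30.0 to 77.7%, with the highest in Smad7, against a median of 51.7% over all windows.

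The Id genes were lower at 10 months than at 2 months, whereas Bmp6 was higher. At 20 months Id1 and Id4 were above their 10-month levels, while on the deposited scale Id3 was not. On that scale the inhibitory Smads and Bmpr1a were below their levels at both younger ages. The evidence for the falls of Smad7 and Bmpr1a from 2 months depended on the scaling, as given below. All 10 genes passed the filter of at least 1 FPKM in at least 3 libraries, which left 11708 genes for testing with limma on log2(FPKM + 1). Genes with a p under 0.05 after Benjamini-Hochberg adjustment over all genes tested are referred to as called. Between 10 and 2 months, 5 of the 10 were called, against 30.3% of all genes tested. Of these, 1 rose (Bmp6), against 19.0% of all genes, and 4 fell (Id1, Id2, Id3 and Id4), against 11.4%. Between 20 and 2 months 8 of the 10 were called, against 68.2% of all genes tested. The 3 that rose (Bmp6, Id1 and Id4) compare with 18.6% of all genes, and the 5 that fell (Bmpr1a, Smad6, Smad7, Id2 and Id3) with 49.6%. Between 20 and 10 months 7 of the 10 were called, against 64.7%. Of these, 3 rose (Id1, Id4 and Bambi), against 11.4% of all genes, and 4 fell (Bmp6, Bmpr1a, Smad6 and Smad7), against 53.3%. A moderated F test over the 3 ages called 8 of the 10, all but Bmpr2 and Bambi, against 75.4% of all genes tested. Shares near those of all genes say nothing particular about these 10.

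The scale of the 20-month libraries bears on these counts. The median log2 change over all genes tested was -0.20 between 20 and 2 months and -0.23 between 20 and 10 months, against 0.04 between 10 and 2 months. Over the 10 genes the median was -0.24, -0.05 and -0.07 in those 3 comparisons. After median-of-ratios scaling, which brings the median gene to a change near 0, 7 of the 10 were called between 20 and 2 months, against 62.3% of all genes. Of these, 4 rose and 3 fell, against 31.0% and 31.3% of all genes. Between 20 and 10 months 7 were called on that scale, against 52.5%, and again 4 rose and 3 fell, against 26.7% and 25.8%. For the 20-month comparisons, values are as deposited unless median-of-ratios scaling is named.

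**Figure D1:**
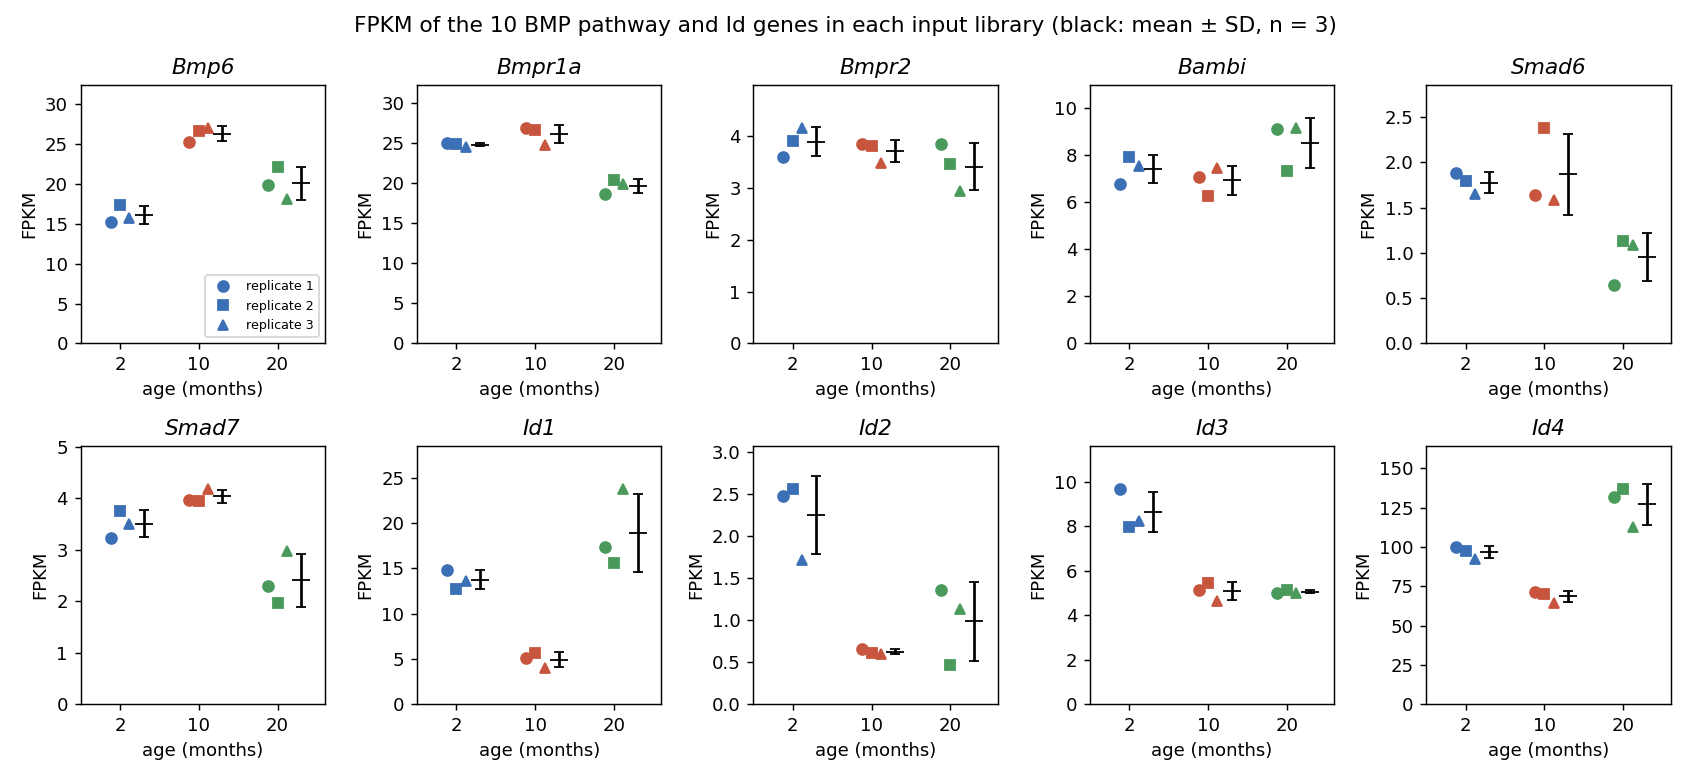
FPKM of each gene in each of the 9 input libraries by age in months, with the mean ± SD of the 3 libraries of an age in black. The 10-month libraries are the lowest for Id1 and Id4 and the highest for Bmp6, and all panels start at 0.

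Bmp6, the most abundant of the BMP and GDF ligands listed, was highest at 10 months. It stood at 15.2, 17.4 and 15.7 FPKM in the 2-month libraries, at 25.2, 26.6 and 27.0 FPKM in the 10-month libraries and at 19.9, 22.1 and 18.1 FPKM in the 20-month libraries. No library of one age overlapped with those of another. The gene (ENSRNOG00000013717) lies at chr17:26955142-27112820 on the minus strand in the deposited table, for which the sources used here give no genome build. Its mean was 1.63 times as high at 10 months as at 2 months, a log2 change of 0.67 ± 0.07 (SE; limma adjusted p = 0.000286). At 20 months it remained above the 2-month level by 0.30 on the log2 scale (limma adjusted p = 0.00635), and by 0.51 after median-of-ratios scaling. Against 10 months it was 0.38 lower as deposited (log2 change -0.38, limma adjusted p = 0.00184), but after median-of-ratios scaling the change was -0.12 (limma adjusted p = 0.212), so that among the scalings tried the fall was called as deposited and after rescaling to a fixed sum only.

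Other ligands were scarce. Of 14 further BMP and GDF ligands listed, 9 were in the table and 8 of these stayed under 1 FPKM in every library, Bmp2 and Bmp4 among them. Bmp4 had the highest mean of these at 2 months with 0.303 FPKM, and its mean was 0.284 FPKM at 10 months and 0.078 FPKM at 20 months. The remaining one, Bmp15, is known as an oocyte factor. It averaged 6.74 ± 0.290, 5.37 ± 0.257 and 3.88 ± 0.601 FPKM at 2, 10 and 20 months (SD, n = 3 each) and fell in each comparison, by 0.67 on the log2 scale between 20 and 2 months (limma adjusted p = 0.000137) as deposited and by 0.49 after median-of-ratios scaling. Its fall between 20 and 10 months, of 0.39 as deposited, was not called after median-of-ratios scaling.

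Bmpr1a, a type I receptor kinase for BMP ligands, was lower at 20 months. It stood at 25.0, 24.9 and 24.6 FPKM in the 2-month libraries, at 26.9, 26.7 and 24.9 FPKM in the 10-month libraries and at 18.7, 20.4 and 19.9 FPKM in the 20-month libraries. The 2- and 10-month libraries overlapped, and all 20-month libraries were below both. The gene (ENSRNOG00000052469) lies at chr16:10758527-10802512 on the minus strand. The log2 change was -0.32 ± 0.05 between 20 and 2 months (SE; limma adjusted p = 0.000193) and -0.39 between 20 and 10 months (limma adjusted p = 8.08e-05). After median-of-ratios scaling these were -0.10 (limma adjusted p = 0.0899) and -0.14 (limma adjusted p = 0.0419), so the first call was lost. Between 10 and 2 months the log2 change was 0.07, with a 95% confidence interval of -0.03 to 0.17.

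Bmpr2, the type II receptor kinase that pairs with it, was not called in any comparison. Its levels were 3.60, 3.91 and 4.15 FPKM at 2 months, 3.85, 3.81 and 3.47 FPKM at 10 months and 3.84, 3.45 and 2.93 FPKM at 20 months, and the 3 ages overlapped. The 95% confidence intervals of the log2 change were -0.25 to 0.14 between 10 and 2 months, -0.35 to 0.04 between 20 and 2 months and -0.30 to 0.10 between 20 and 10 months, so changes of this size remain possible. Without the 20-month replicate 1 the change between 20 and 2 months was -0.22 (limma adjusted p = 0.0435). On the median-of-ratios scale it was 0.03. Bmpr2 (ENSRNOG00000022196) lies at chr9:66568074-66676494 on the plus strand, and its span contains the minus-strand entry AABR07067829 at chr9:66626525-66627007, which had a mean of 768 FPKM. The sources used here do not say whether the libraries kept the strand, so the level of Bmpr2 is uncertain.

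Bambi encodes a receptor-like protein without a kinase domain that dampens BMP and TGF-beta signalling. It had 6.78, 7.93 and 7.53 FPKM at 2 months, 7.08, 6.28 and 7.47 FPKM at 10 months and 9.13, 7.32 and 9.16 FPKM at 20 months. In the 20-month group, replicates 1 and 3 were above all younger libraries and replicate 2 lay among them. The gene (ENSRNOG00000016066) lies at chr17:56905112-56909992 on the minus strand. It was called higher at 20 months than at 10 months, with a log2 change of 0.26 ± 0.10 (SE; limma adjusted p = 0.037) as deposited and 0.50 (limma adjusted p = 0.00188) after median-of-ratios scaling. Leaving out any of 5 libraries ended the call as deposited: 2-month replicate 3 (adjusted p = 0.052 by limma), 10-month replicates 1 and 2 (0.067 and 0.128) and 20-month replicates 1 and 3 (0.108 and 0.111). Between 20 and 2 months the log2 change was 0.18 (limma adjusted p = 0.128) as deposited, 0.38 (limma adjusted p = 0.00583) after median-of-ratios scaling and 0.27 (limma adjusted p = 0.0189) without the 20-month replicate 2. Within each library, Bambi over Bmpr1a gives a ratio that no scaling by a single factor per library changes. The ratio was 0.271 to 0.318, 0.235 to 0.300 and 0.359 to 0.488 at 2, 10 and 20 months, so the 20-month libraries lay above all younger ones.

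Smad7 and Smad6, the inhibitory Smads that block receptor kinases and the Smads they activate, were both lowest at 20 months. Smad7 stood at 3.23, 3.76 and 3.51 FPKM at 2 months, at 3.97, 3.95 and 4.18 FPKM at 10 months and at 2.29, 1.96 and 2.97 FPKM at 20 months. No library of one age overlapped with those of another. Smad7 (ENSRNOG00000018359) lies at chr18:71395830-71424157 on the plus strand. Its log2 change was -0.57 ± 0.10 between 20 and 10 months (SE; limma adjusted p = 0.00113) and -0.41 ± 0.10 between 20 and 2 months (SE; limma adjusted p = 0.00653). After median-of-ratios scaling the first was -0.37 (limma adjusted p = 0.0158) and the second -0.24 (limma adjusted p = 0.0725), no longer called. Between 10 and 2 months the change of 0.16 was not called (limma adjusted p = 0.266; 95% confidence interval -0.07 to 0.40).

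Smad6 was scarce, with 11 to 59 fragments estimated per library. It had 1.88, 1.80 and 1.66 FPKM at 2 months, 1.64, 2.38 and 1.58 FPKM at 10 months and 0.649, 1.13 and 1.09 FPKM at 20 months. The younger ages overlapped, and every 20-month library was below them. The gene (ENSRNOG00000009173) lies at chr8:68898296-68966108 on the minus strand. The 20-month mean was 0.538 times that at 2 months and 0.513 times that at 10 months. The log2 changes, which understate the change of so low a gene, were -0.51 ± 0.13 (SE; limma adjusted p = 0.00759) and -0.55 ± 0.13 (SE; limma adjusted p = 0.00584), and both stayed called after median-of-ratios scaling, at -0.39 and -0.40. The difference between 10 and 2 months, 0.04 as deposited, turned to -0.09 without the 10-month replicate 2.

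**Figure D2:**
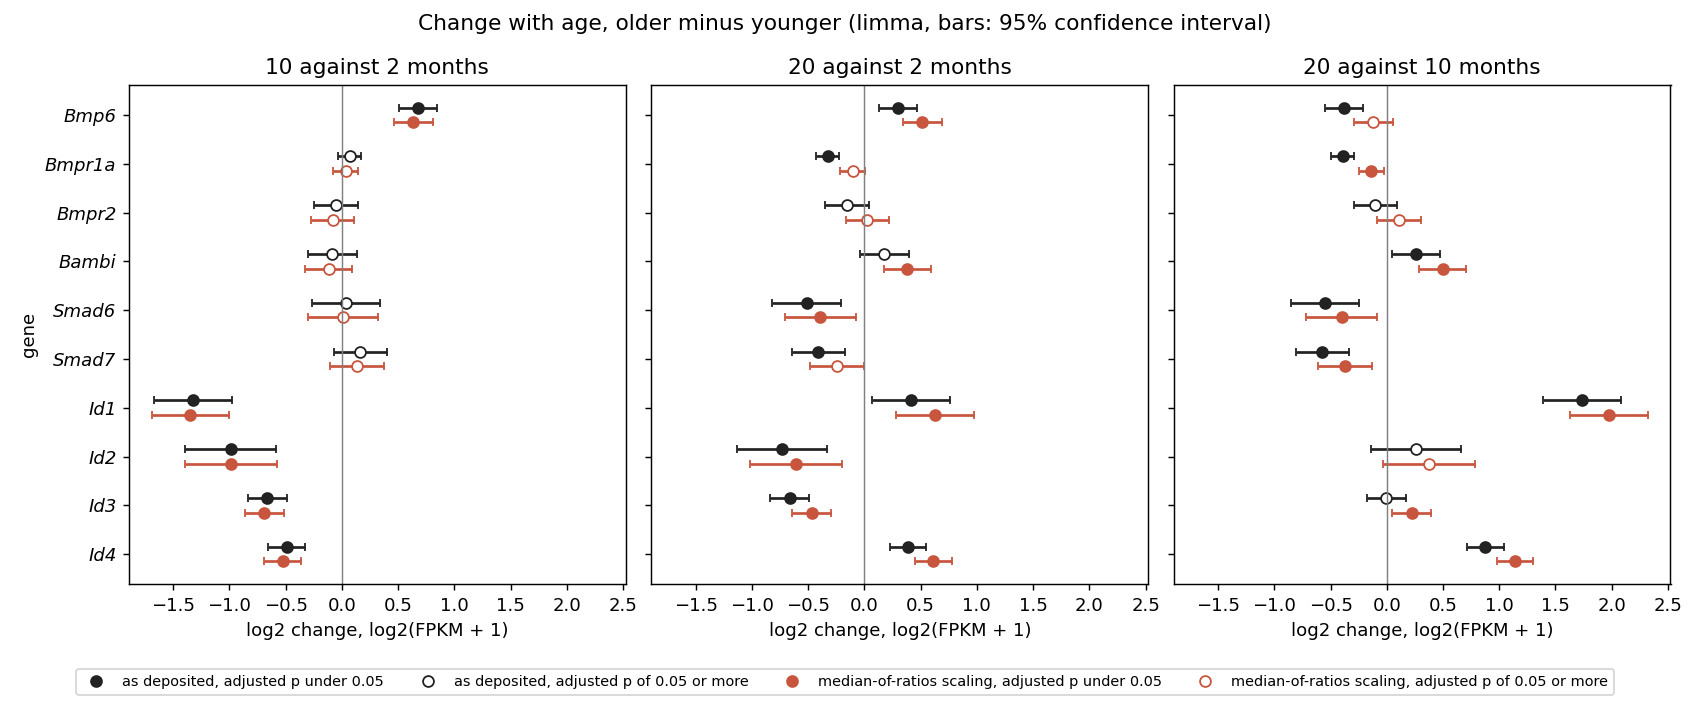
Change of each gene on the log2(FPKM + 1) scale, older minus younger age, with the 95% confidence interval from limma, in black as deposited and in red after median-of-ratios scaling. Points are filled where the adjusted p was under 0.05. Red points lie to the right of black ones in both comparisons of the 20-month libraries, and Bmpr2 and Id3 are the genes whose sign differs between the scales.

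Id4 was by far the most abundant of the Id genes and was lowest at 10 months. It stood at 100, 97.3 and 92.7 FPKM in the 2-month libraries, at 71.1, 69.8 and 64.7 FPKM in the 10-month libraries and at 132, 137 and 113 FPKM in the 20-month libraries. The 3 ages did not overlap. Id4 (ENSRNOG00000016099) lies at chr17:16692557-16695126 on the minus strand, and its mean over the 9 libraries was at percentile 94.7 among the genes tested. Its log2 change was -0.49 ± 0.07 between 10 and 2 months (SE; limma adjusted p = 0.00119), 0.88 ± 0.07 between 20 and 10 months (SE; limma adjusted p = 1.34e-05) and 0.39 ± 0.07 between 20 and 2 months (SE; limma adjusted p = 0.00113). After median-of-ratios scaling the changes at 20 months were 1.14 and 0.61, both called. Without the 20-month replicate 3, the library with muscle transcripts and the lowest Id4 of its age, they were 0.96 and 0.47.

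Id1, a textbook direct target of BMP-activated Smads, had the largest change of the 10 genes between 20 and 10 months. It stood at 14.9, 12.8 and 13.6 FPKM in the 2-month libraries, at 5.15, 5.66 and 4.001 FPKM in the 10-month libraries and at 17.4, 15.6 and 23.8 FPKM in the 20-month libraries. The 3 ages did not overlap, and the 20-month replicate 3 was the highest library. Id1 (ENSRNOG00000021750) lies at chr3:148215540-148216718 on the plus strand. The 10-month mean was 0.359 times the 2-month mean, a log2 change of -1.32 ± 0.15 (SE; limma adjusted p = 0.00036), while the mean of the scarcer Id2 was at 0.278 times its 2-month level. The 20-month mean was 3.84 times the 10-month mean, a log2 change of 1.74 ± 0.15 (SE; limma adjusted p = 1.89e-05), or 1.98 after median-of-ratios scaling and 1.57 without the 20-month replicate 3. Between 20 and 2 months the rise was 0.41 ± 0.15 (SE; limma adjusted p = 0.0369) as deposited and 0.63 (limma adjusted p = 0.0058) after median-of-ratios scaling. That call was lost without the 20-month replicate 3 (log2 change 0.25, limma adjusted p = 0.107), the 2-month replicate 2 (0.36, 0.105), the 2-month replicate 3 (0.41, 0.0808) or the 10-month replicate 1 (0.41, 0.05002), and with the replicate number as a block (0.41, 0.065).

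Id3 was lower at both older ages than at 2 months, and the deposited values did not separate 20 from 10 months. It had 9.68, 7.98 and 8.25 FPKM at 2 months, 5.15, 5.45 and 4.65 FPKM at 10 months and 5.02, 5.15 and 5.02 FPKM at 20 months. The older ages overlapped each other, and neither overlapped with 2 months. Id3 (ENSRNOG00000026124) lies at chr5:154489590-154491223 on the plus strand. The log2 change was -0.66 ± 0.08 both between 10 and 2 months (SE; limma adjusted p = 0.000366) and between 20 and 2 months (SE; limma adjusted p = 5.99e-05). After median-of-ratios scaling the change between 20 and 2 months was -0.47 (limma adjusted p = 0.000651). Between 20 and 10 months it was -0.0027 (limma adjusted p = 0.979; 95% confidence interval -0.18 to 0.17) as deposited and 0.22 (limma adjusted p = 0.0375) after median-of-ratios scaling, where it was called higher at 20 months.

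Id2 was the scarcest Id gene, with 11 to 71 fragments estimated per library. It had 2.48, 2.57 and 1.72 FPKM at 2 months, 0.661, 0.615 and 0.603 FPKM at 10 months and 1.36, 0.465 and 1.13 FPKM at 20 months. Both older ages were below every 2-month library, and the 20-month libraries lay on both sides of the 10-month ones. Id2 (ENSRNOG00000007237) lies at chr6:44348501-44363915 on the minus strand. Its mean at 10 months was 0.278 times that at 2 months (log2 change -0.99 ± 0.18, SE; limma adjusted p = 0.0034), and its mean at 20 months was 0.438 times that at 2 months (log2 change -0.73 ± 0.18, SE; limma adjusted p = 0.00527), a change of -0.61 (limma adjusted p = 0.0163) after median-of-ratios scaling. Between 20 and 10 months the change was 0.26 (limma adjusted p = 0.225) as deposited and 0.38 (limma adjusted p = 0.11) after median-of-ratios scaling, and it was 0.47 (limma adjusted p = 0.0147) without the 20-month replicate 2. Id2 was the only one of the 10 genes with more than 1 listed transcript. Its transcript of 733 bases averaged 3.67 ± 0.526, 1.05 ± 0.178 and 1.79 ± 0.781 FPKM at 2, 10 and 20 months (SD, n = 3 each), while the transcript of 1169 bases stayed under 1 FPKM in every library and was listed at 0 in 2 of them.

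The nucleus pulposus markers were lower at 10 months together with the Id genes. Of the 13 tested, 9 fell and none rose between 10 and 2 months, against 11.4% and 19.0% of all genes. Their median log2 change was -0.35, against 0.04 over all genes. Between 20 and 2 months 9 fell and 1 rose, against 49.6% and 18.6% of all genes. After median-of-ratios scaling 7 fell and 5 rose, against 31.3% and 31.0%. Between 20 and 10 months 6 fell and 3 rose as deposited, against 53.3% and 11.4%, so the falling share was near that of all genes. After median-of-ratios scaling 2 fell and 8 rose, against 25.8% and 26.7%. After quantile normalization 7 fell and 4 rose between these ages, against 3455 lower and 2611 higher of all 11708 genes. Between 20 and 2 months that normalization gave 10 that fell and 2 that rose, against 4087 and 3236 of all genes. The direction of these markers at 20 months thus depended on the scaling. The part of these markers in the Id results was not tested.

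Red blood cell transcripts moved in the same direction as Id1 and Id4 between the 10-month libraries and both other ages. The 6 red blood cell markers in the table summed to 82.9 to 93.2 FPKM at 2 months, 9.57 to 10.6 FPKM at 10 months and 36.6 to 42.5 FPKM at 20 months. The 4 tested, all haemoglobin genes, fell between 10 and 2 months, as did 11.4% of all genes. They rose between 20 and 10 months, as did 11.4% of all genes. Alas2 and Slc4a1, defining genes of the red cell lineage, were at most 0.135 and 0.029 FPKM in any library. Alas2 averaged 0.099, 0 and 0.045 FPKM at 2, 10 and 20 months, and Slc4a1 0.017, 0 and 0.013 FPKM. The part of red blood cell transcripts in the Id results was not tested. Endothelial cells are another known site of Id1 expression, and 10 of the 11 endothelial markers in the table were under 1 FPKM in every library. The highest value was 0.047 FPKM for Cdh5, 0.008 FPKM for Kdr, 0.690 FPKM for Egfl7 and 0.811 FPKM for Vwf. Vwf averaged 0.276, 0.557 and 0.704 FPKM at 2, 10 and 20 months, higher at each older age, whereas Flt1 was lowest at 20 months. The 11 summed to 27.4 to 27.9, 26.4 to 27.4 and 21.8 to 22.4 FPKM at 2, 10 and 20 months, nearly all of it Flt1. Pericyte and smooth muscle markers summed to 30.1 to 31.1, 21.5 to 22.2 and 18.1 to 22.3 FPKM at 2, 10 and 20 months, and macrophage and leukocyte markers to 19.3 to 20.2, 22.2 to 23.3 and 19.9 to 21.9 FPKM. Annulus and tendon markers summed to 14.6 to 15.9, 5.26 to 5.92 and 6.37 to 30.5 FPKM, bone and osteoclast markers to 16.3 to 17.1, 10.1 to 11.3 and 5.13 to 6.95 FPKM, and adipocyte markers to at most 1.301 FPKM in any library. Their part in the results was not tested either.

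Ratios of genes within a library do not depend on a single scaling factor per library, and they separated the Id genes from each other. Id1 over Id3 averaged 1.60 ± 0.0591, 0.966 ± 0.0936 and 3.74 ± 0.890 at 2, 10 and 20 months (SD, n = 3 each), with no overlap between ages. Id4 over Id3 averaged 11.3 ± 0.921, 13.5 ± 0.612 and 25.1 ± 2.33 at the same ages, again with no overlap. Id3 thus parted from Id1 and Id4 at 20 months under any scaling by a single factor per library. Id4 over Id1 averaged 7.05 ± 0.498, 14.1 ± 1.94 and 7.03 ± 2.09 at those ages, the 10-month libraries lying above all others while the 2- and 20-month ones overlapped. An exact two-sided permutation test of 3 against 3 libraries cannot go below p = 0.1, and the pairs of ages that did not overlap reached that value.

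All 4 Id genes were low relative to Bmp6 at 10 months, and at 20 months Id4 and Id1 differed from Id3 in that ratio. Id4 over Bmp6 averaged 6.02 ± 0.508, 2.61 ± 0.214 and 6.34 ± 0.240 at 2, 10 and 20 months (SD, n = 3 each). Id1 over Bmp6 averaged 0.859 ± 0.122, 0.188 ± 0.035 and 0.964 ± 0.315 at these ages. In both ratios the 10-month libraries lay below all others, and the 2- and 20-month libraries overlapped. Id3 over Bmp6 was 0.459 to 0.636, 0.172 to 0.205 and 0.233 to 0.277 at 2, 10 and 20 months, so its 20-month libraries lay above the 10-month ones but below all 2-month ones. Id2 over Bmp6 was 0.109 to 0.163, 0.0223 to 0.0262 and 0.021 to 0.0685 at these ages, both older ages lying below 2 months and overlapping each other.

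**Figure D3:**
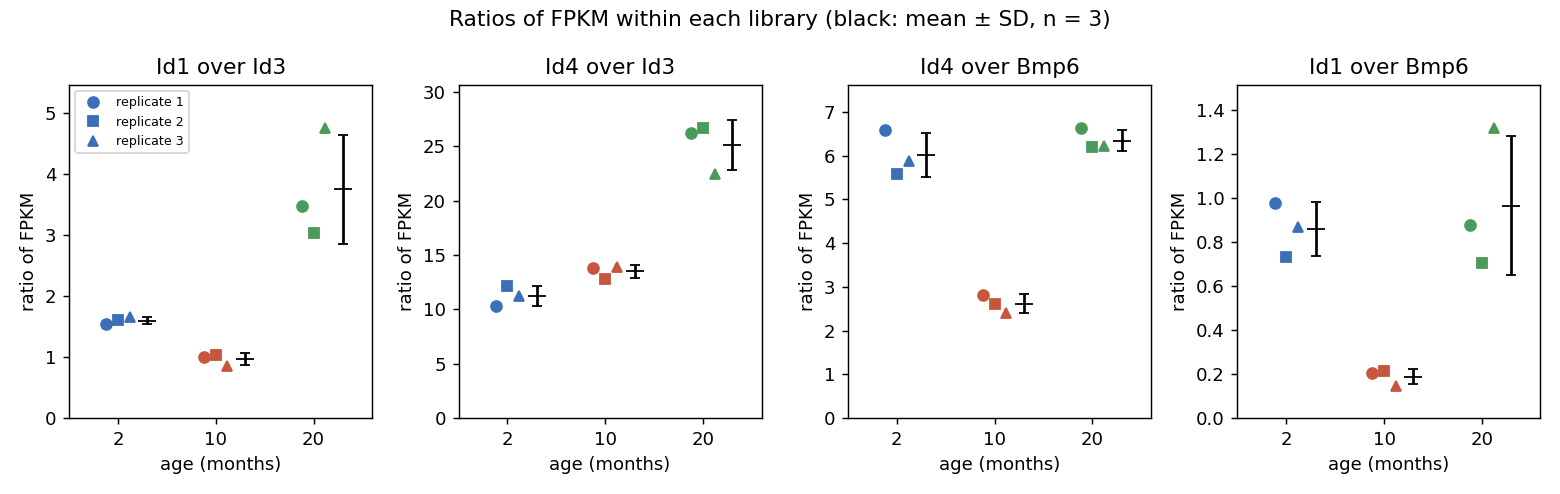
Ratio of FPKM of 2 genes within each of the 9 input libraries by age in months, with the mean ± SD of the 3 libraries of an age in black. Id1 over Id3 and Id4 over Id3 are highest at 20 months, and the ratios of Id4 and Id1 to Bmp6 are lowest at 10 months.

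Summed over the 4 Id genes, the level was 116 to 127 FPKM at 2 months, 74.0 to 82.1 FPKM at 10 months and 143 to 158 FPKM at 20 months. Most of it was Id4, with 79.7 ± 0.962%, 86.6 ± 0.937% and 83.4 ± 3.97% of the sum at 2, 10 and 20 months (SD, n = 3 each). The share of Id1 was lowest at 10 months, with 10.6 to 11.7%, 5.41 to 6.94% and 9.84 to 16.7% at 2, 10 and 20 months. The share of Id3 was lowest at 20 months, with 6.62 to 7.61%, 6.27 to 6.69% and 3.23 to 3.52% at these ages. The summed level is thus mainly that of Id4. Id1 held the second largest share at 2 and 20 months, whereas at 10 months the shares of Id1 and Id3 overlapped.

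Across the whole pathway, more of the genes around these 10 fell than rose at 20 months, as was so for all genes tested. Of 81 further genes on 6 lists, 65 were in the table and 37 were tested. Between 10 and 2 months 6 of the 37 rose and 9 fell, against 19.0% and 11.4% of all genes. In the comparison of 20 with 2 months 3 rose and 22 fell, against 18.6% and 49.6%, and between 20 and 10 months 2 rose and 26 fell, against 11.4% and 53.3%. Their median log2 change was -0.03, -0.30 and -0.29, against 0.04, -0.20 and -0.23 over all genes tested. After median-of-ratios scaling 10 rose and 15 fell between 20 and 2 months, against 31.0% and 31.3% of all genes, and 5 rose and 11 fell between 20 and 10 months, against 26.7% and 25.8%. On that scale the median of the 37 was -0.08 and -0.06. Between 10 and 2 months 4 rose and 9 fell on the same scale, against 1771 higher and 1703 lower of all 11708 genes. The counts of the lists described next are to be read against these shares of all genes.

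Among 7 receptors and co-receptors tested, Hjv, Neo1 and Acvr1 were lower at 20 than at 2 months on both scales. Between 10 and 2 months Acvr2a, a type II receptor, rose and 3 fell (Acvr1, Neo1 and Hjv). After median-of-ratios scaling the 3 were still called and Acvr2a was not (log2 change 0.17, limma adjusted p = 0.092). At 20 months 5 fell and none rose relative to 2 months, against 49.6% and 18.6% of all genes, and after median-of-ratios scaling 4 fell and 1 rose (Acvr2a). Acvr2a and Rgmb were not called between these ages as deposited, with log2 changes of -0.01 (limma adjusted p = 0.896) and -0.27 (limma adjusted p = 0.0919). All 7 fell between 20 and 10 months, against 53.3% of all genes, and of these only Hjv and Neo1 were called after median-of-ratios scaling. Hjv, the co-receptor haemojuvelin known from the control of iron, averaged 9.84 ± 0.825 FPKM at 20 months, against 19.1 ± 0.618 FPKM at 2 months (SD, n = 3 each), a log2 change of -0.90 (limma adjusted p = 3.19e-06). Neo1, the receptor neogenin that binds the repulsive guidance molecules, averaged 22.0 ± 0.757 FPKM at 20 months, against 34.4 ± 0.763 FPKM at 2 months, a log2 change of -0.62 (limma adjusted p = 2.01e-06). Acvr1, a further type I receptor for BMP ligands, averaged 5.03 ± 0.489, 3.73 ± 0.139 and 2.94 ± 0.212 FPKM at 2, 10 and 20 months (SD, n = 3 each), and fell both between 10 and 2 months (log2 change -0.35, limma adjusted p = 0.00846) and between 20 and 2 months (log2 change -0.61, limma adjusted p = 8.68e-05). Rgma, a repulsive guidance molecule that acts as a co-receptor, fell between 20 and 10 months by 0.29 on the log2 scale (limma adjusted p = 0.00102), but the change was -0.05 after median-of-ratios scaling and was not called. On that scale the changes between 20 and 2 months were -0.68 for Hjv, -0.40 for Neo1 and -0.43 for Acvr1, all called.

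Of the Smads that carry the signal and their regulators, 2 of 11 tested rose and none fell at 10 months against 2 months. These were Ctdsp1, a phosphatase that acts on Smads, and Smad5, a signal-carrying Smad of the BMP branch. Their log2 changes were 0.19 (limma adjusted p = 0.00715) and 0.20 (limma adjusted p = 0.0444). After median-of-ratios scaling Ctdsp1 was still called (0.15, limma adjusted p = 0.028) and Smad5 was not (0.17, limma adjusted p = 0.0775). Between 20 and 2 months Ppm1a, a Smad phosphatase, and Smurf1, a ubiquitin ligase for Smads, rose by 0.18 and 0.26 on the log2 scale, and 5 fell. After median-of-ratios scaling 5 rose and 2 fell, so the balance turned with the scale, with Ski and Smurf2 still among the falling. Ski, a co-repressor of Smads, averaged 11.2 ± 0.911 FPKM at 20 months, against 17.9 ± 0.617 FPKM at 2 months (SD, n = 3 each), a log2 change of -0.63 (limma adjusted p = 1.62e-05). Smurf2, a ubiquitin ligase for Smads and receptors, fell by 0.33 and Tob1, a protein that restrains BMP-activated Smads, by 0.30 on the log2 scale between 20 and 2 months. After median-of-ratios scaling the changes were 0.41 for Ppm1a, 0.48 for Smurf1, -0.42 for Ski and -0.11 for Smurf2, all called, and -0.07 for Tob1, which was not called (limma adjusted p = 0.11). Between 20 and 10 months Ppm1a was the 1 of the 11 that rose and 6 fell, and 3 rose and 3 fell after median-of-ratios scaling.

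Secreted antagonists and modulators differed in direction at 10 months, where 3 of 9 tested rose (Crim1, Sostdc1 and Bmp1) and 3 fell (Fstl3, Fstl1 and Twsg1) against 2 months. Crim1, a membrane protein that binds BMP ligands, rose by 0.35 on the log2 scale (limma adjusted p = 0.000625), and Fstl3, which binds activins and some BMP ligands, fell by 0.55 (limma adjusted p = 0.000264). Fstl3 averaged 36.4 ± 0.785, 24.5 ± 0.155 and 15.1 ± 1.48 FPKM at 2, 10 and 20 months (SD, n = 3 each). Its log2 change between 20 and 2 months was -1.22 ± 0.06 (SE; limma adjusted p = 4.37e-07). Between 20 and 2 months Crim1 was the 1 of the 9 that rose and 5 fell, and between 20 and 10 months 7 fell, of which Chrd, the antagonist chordin, fell by 0.50 (limma adjusted p = 9.19e-05). Nbl1, a DAN-family antagonist, was the most abundant of the list and fell by 0.44 between 20 and 2 months, and Fstl1, a secreted follistatin-like glycoprotein, fell by 0.58. After median-of-ratios scaling 2 rose and 4 fell between 20 and 2 months, and 1 rose and 4 fell between 20 and 10 months. Fstl3, Fstl1 and Nbl1 were among the falling between 20 and 2 months on that scale, with log2 changes of -1.003, -0.36 and -0.22, and Chrd among the falling between 20 and 10 months, with -0.25.

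Among partners of Id proteins and other bHLH factors, Bhlhe41 and Bhlhe40 fell in all 3 comparisons on both scales. Of 9 tested, these were the only ones that fell between 10 and 2 months, and none rose. Of the 9, 6 fell and none rose between 20 and 2 months, against 49.6% and 18.6% of all genes, and between 20 and 10 months 5 fell and 1 rose, against 53.3% and 11.4%, so the falling shares are near those of all genes. After median-of-ratios scaling 2 rose (Tcf4 and Hes1) and 4 fell between 20 and 2 months. On that scale 1 rose and 2 fell between 20 and 10 months. Bhlhe41, a bHLH repressor that is part of the circadian clock, averaged 46.1 ± 1.83, 37.4 ± 0.849 and 16.0 ± 0.935 FPKM at 2, 10 and 20 months (SD, n = 3 each). Its log2 change between 20 and 2 months was -1.47 ± 0.05 (SE; limma adjusted p = 6.04e-08). Bhlhe40, its close relative, averaged 117.0 ± 10.0 FPKM at 20 months, against 205 ± 2.67 FPKM at 2 months, a log2 change of -0.81 (limma adjusted p = 1.79e-06). Scx, the tendon factor scleraxis, fell by 0.72 between 20 and 2 months, but it overlaps the opposite-strand gene Bop1 and its level is uncertain. Ets2, of the ETS factors that Id proteins can also bind, fell by 0.28 between 20 and 10 months. After median-of-ratios scaling the changes between 20 and 2 months were -1.25 for Bhlhe41, -0.58 for Bhlhe40 and -0.57 for Scx, all called, and that of Ets2 between 20 and 10 months was -0.05, which was not called.

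Hes1, a bHLH repressor known to respond to BMP and to Notch, was the 1 gene that rose among the bHLH factors as deposited. Of 16 further genes known to respond to BMP, Hes1 was the 1 gene tested. It averaged 4.90 ± 0.831, 3.74 ± 0.282 and 6.21 ± 1.47 FPKM at 2, 10 and 20 months (SD, n = 3 each). Like Id1 and Id4 it was lowest at 10 months, and its log2 change was 0.59 ± 0.15 between 20 and 10 months (SE; limma adjusted p = 0.00708), whereas it was not called in the other comparisons as deposited and was called higher between 20 and 2 months after median-of-ratios scaling. Of the 13 genes of that list in the table, 11 were under 1 FPKM in every library. The other one besides Hes1 was Gata2, which did not pass the filter and ran the other way. It averaged 0.650, 1.06 and 0.386 FPKM at 2, 10 and 20 months, highest at 10 months.

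**Figure D4:**
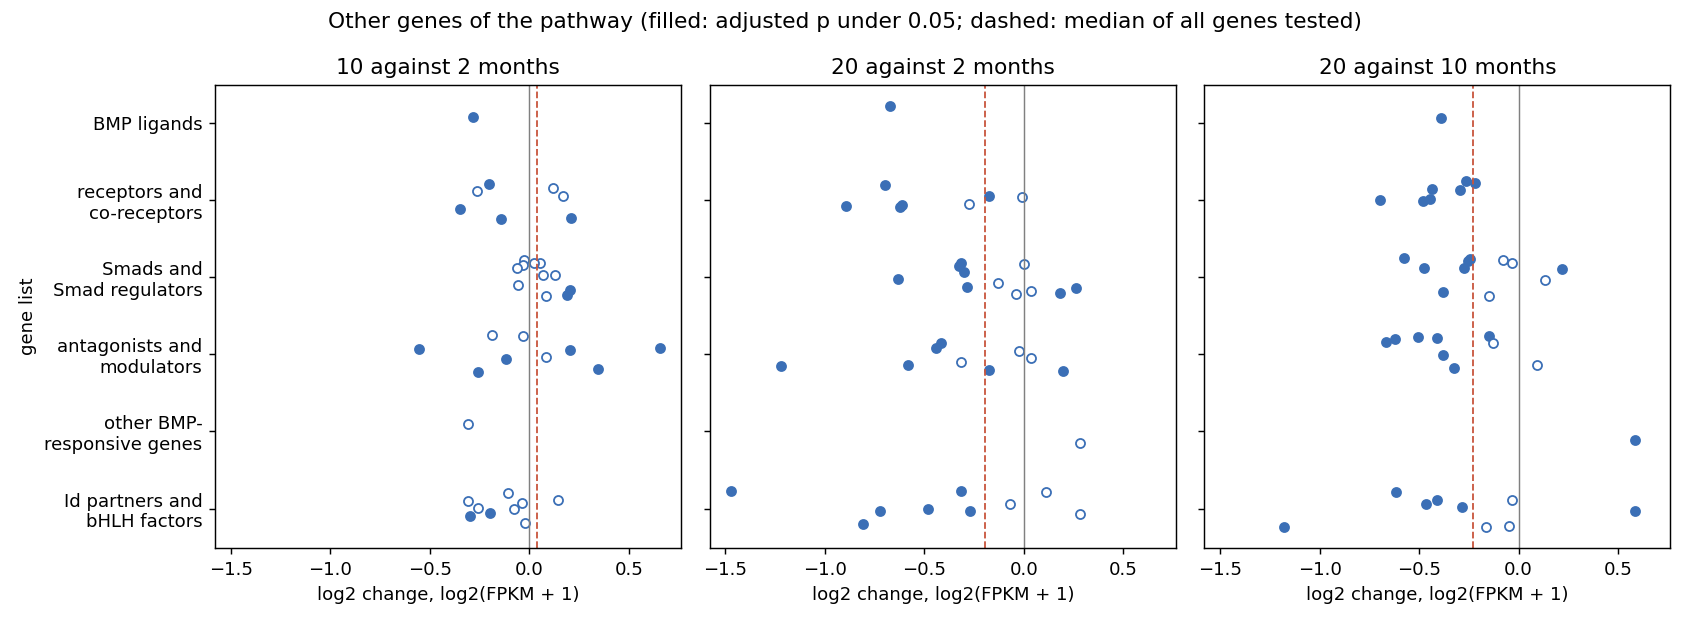
Change of each tested gene of 6 pathway lists on the log2(FPKM + 1) scale, older minus younger age, as deposited. Points are filled where limma's adjusted p was under 0.05, Hes1 stands in both of the lowest lists, and the dashed line is the median of all genes tested. Most points lie left of 0 in both comparisons of the 20-month libraries, where the dashed line is also left of 0.

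The genes whose levels ran most closely with each of the 10 were taken from 7143 tested genes with a mean of at least 5 FPKM, by Pearson's r of log2(FPKM + 1) over the 9 libraries. These libraries share ages, depth and read length within an age, so r is a description. For Id1 they were Crip1 (r = 0.963), Klf4 (0.959) and Krt8 (0.957). Klf4, a zinc-finger transcription factor, averaged 7.74, 4.33 and 10.4 FPKM at 2, 10 and 20 months, and Krt8, a keratin of notochord-derived cells, 4320, 3250 and 4440 FPKM. For Id4 they were H3f3a (r = 0.98), Lmcd1 (0.977) and Cox7a2l2 (0.976). H3f3a, which encodes a replacement histone, averaged 253, 198 and 349 FPKM at the 3 ages. For Id3 they were Fez2, Selenok and Map7d1, and for Id2 Cyp27a1 (r = 0.979), Col2a1 (0.937) and Blmh. Col2a1, the main fibrillar collagen of cartilage, averaged 304, 113 and 131 FPKM at 2, 10 and 20 months, its level at both older ages being low as that of Id2 was. For Bmp6 they were Lmo7 (r = 0.982), Lad1 and Tmem30a, and for Bmpr1a Rab18 (r = 0.996), Spag9 and Hnrnpul2. For Smad7 they were Msh6 (r = 0.987), Plekha2 and Psmd5, and for Smad6 Mtm1, Syap1 and Pias1. For Bmpr2 they were Lyrm4, Tdrkh and Akr1a1. For Bambi they included Rab20 (r = 0.884), the closest, and Mrpl27, and that r was the lowest of the 10 genes for the closest match.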

How the data were processed

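Per the labels' protocols, RNA was extracted from nucleus pulposus with TRIzol, and poly(A) RNA was bound to oligo(dT) beads and fragmented. Input libraries were made without immunoprecipitation. The authors deposited FPKM per gene, and per transcript FPKM and coverage (mean reads per base). These units are stated per the file headers. Tools listed without a role in the submitters' processing notes are StringTie 1.3.4d, HISAT2 2.0.4, cutadapt 1.9, edgeR and DESeq2. The sources used here give neither the genome build nor the strandedness.

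Genes with at least 1 FPKM in at least 3 of the 9 input libraries were tested on log2(FPKM + 1) in 1 fit over all 9 libraries (R 4.3.3, limma 3.58.1, two-sided, empirical Bayes allowing a trend of the variance with the mean), with Benjamini-Hochberg adjustment over the 11708 genes tested. Fold changes on this scale understate the change of low genes. The tables hold no counts: gigabases were taken from the ratio of coverage to FPKM in the deposited transcript table, and fragments from coverage, transcript length and read length. Figures of fragments are estimates and limit precision for Smad6 and Id2. The fit was tested on simulated data.

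The 10 genes and all lists were chosen with earlier results of these data known. All 10 are named, with up to 3 called genes per list and comparison by adjusted p, and the 3 genes most correlated with each, apart from an item that is not reported here. Bmp2, Bmp4, Acvr2a, Ppm1a, Smurf1, Sostdc1, Bmp1, Twsg1, Tcf4, Gata2 and marker genes were named after their values were seen. Isoforms were not tested, since a single transcript of Id2 passed the filter. The methylation measurements were not analysed here. Alternatives were other pseudocounts, filters, scalings and weights, each library left out, a fit of only the 2 ages compared, and a replicate block.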

Additional observations from a re-analysis of the deposited data

How the results depend on the processing

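Across the alternative settings, 547 changes and levels of single genes kept their direction and their side of the threshold, 21 lost a call, 5 gained one without a change of sign, 12 changed sign, of which 2 also gained a call, and 3 levels moved by more than 1 SD. The filter of at least 5 FPKM in at least 3 libraries left 6 of the 10 genes to test and called 5 of them between 20 and 2 months and 5 by the F test. Of all 8184 genes tested with that filter, 1623 were called higher and 4409 lower between 20 and 2 months. The F test called 6685 of these 8184. Leaving out 1 library at a time gave 5 calls throughout between 10 and 2 months, 7 to 9 between 20 and 2 months, 6 to 8 between 20 and 10 months and 8 to 9 by the F test. Without the 20-month replicate 3, which held muscle transcripts, the counts were 5, 7, 6 and 8. Over all 11708 genes, leaving out 1 library at a time called 1573 to 2511 higher and 928 to 1565 lower between 10 and 2 months. Between 20 and 2 months 1944 to 2138 were called higher and 5329 to 5872 lower. Between 20 and 10 months 1191 to 1337 were called higher and 5702 to 6284 lower, and the F test called 8312 to 8814.

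None of the values that changed sign was called as deposited. Bmpr2 had a log2 change of 0.0272 between 20 and 2 months after median-of-ratios scaling and 0.0144 after quantile normalization, and 0.11 and 0.14 between 20 and 10 months. Smad6 between 10 and 2 months was at -0.0232 after quantile normalization and -0.089 without the 10-month replicate 2. Id3 between 20 and 10 months was at 0.22 after median-of-ratios scaling and 0.23 after quantile normalization, both called, and at 0.0061, 0.041, 0.0023 and 0.0023 without the 10-month replicate 1, the 10-month replicate 2, the 20-month replicate 1 or the 20-month replicate 3. Over all 9 libraries left out in turn this change ran from -0.055 to 0.0408. Median-of-ratios scaling and quantile normalization brought the median log2 change over all genes between 20 and 2 months to -0.00204 and -0.0414, and the cause of the sign changes was not tested. The calls of Bambi between 20 and 10 months and of Id1 between 20 and 2 months were also lost without a filter and with array weights. That of Bambi was lost too when only the 2 ages were fitted (limma adjusted p = 0.0571), and that of Id1 after rescaling to a fixed sum (limma adjusted p = 0.0514). Summing transcripts in place of the gene value gave Id2 4.24, 1.19 and 1.93 FPKM at 2, 10 and 20 months, against 2.26, 0.626 and 0.988 FPKM. Over all 11708 genes, median-of-ratios scaling called 3630 higher and 3668 lower between 20 and 2 months, against 2175 and 5811 as deposited. For the 37 pathway genes it gave 16 calls between 20 and 10 months, against 28 as deposited. Of all genes it called 52.5% between these ages, against 64.7% as deposited. The scalings and the left-out library for these pathway genes were chosen after seeing the data. Without the 20-month replicate 3 the pathway calls were 16, 28 and 28, against 15, 25 and 28 with all 9 libraries. Over all 11708 genes that fit called 2488 higher and 1565 lower between 10 and 2 months, against 2219 and 1332. It called 2128 and 5630 between 20 and 2 months, against 2175 and 5811. Between 20 and 10 months it called 1337 and 6085, against 1339 and 6237.

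With the replicate number as a block, 5, 7 and 7 of the 10 genes were called in the 3 comparisons and 8 by the F test, and the only call lost was that of Id1 between 20 and 2 months. Of all 11708 genes, that fit called 1987 higher and 1198 lower between 10 and 2 months. It called 2138 and 5721 between 20 and 2 months, 1333 and 6134 between 20 and 10 months, and 8657 by the F test. No pairing of the samples by replicate number was seen, which with 3 libraries per age does not exclude it. Deviations from the age means correlated at -0.04 to 0.0491 over the 9 pairs of libraries with the same number. Over the 18 other pairs they correlated at -0.0734 to 0.0628. Smad6 and Id2, at 11 to 71 estimated fragments per library, and Bmpr2, with an abundant opposite-strand entry inside its span, are the least certain levels.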
